A study of Rattus norvegicus with 6 samples.

Results

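The genes described here are 7 enzymes that make cholesterol, Hmgcs1, Idi1, Fdft1, Sqle, Lss, Cyp51 and Dhcr7, taken by symbol from the deposited table of 22050 genes. All 7 were listed once, all passed the filter on low counts, and all belong to synthesis, so receptors and carriers that take sterols up were described from a separate list. RNA-seq was performed on spinal cord tissues of male Sprague–Dawley rats with 3 sham and 3 SNI-NP libraries. SNI-NP rats had neuropathic pain (NP) induced by spared nerve injury (SNI), an operation that cuts branches of the sciatic nerve and spares another, and sham rats underwent the operation without the nerve injury. The labels name no transgene, drug or vector for either group, and the sources used here do not state the time after surgery, the side of the cord or whether a library came from 1 animal. The comparison addressed which genes differ in the cord once pain has developed.

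Cholesterol cannot cross from blood into nervous tissue in useful amounts, so cells of the cord and nerve make their own, and myelin, the lipid-rich sheath that oligodendrocytes wrap around central axons and Schwann cells around peripheral axons, holds much of it. The pathway joins acetyl units into mevalonate, turns mevalonate into isoprene units, links these into squalene, closes squalene into lanosterol, and trims lanosterol into cholesterol. When sterols run low, the SREBP transcription factors are carried from the endoplasmic reticulum to the Golgi, cut, and sent to the nucleus, where they switch on the enzymes of this pathway. Sterol-regulated promoters are known to combine a sterol response element with an NF-Y box and GC boxes.

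The promoters of 4 of the enzymes are shown first, since they hold different sets of these motifs. RefSeq promoters on the GRCr8 assembly were held for 5 of the 7 genes in the table used, Hmgcs1, Idi1, Lss, Cyp51 and Dhcr7, and each sequence is the 250 bases before the annotated start, read 5′ to 3′ on the gene's strand. Capitals mark every NF-Y box, CCAAT, and every GC box, GGGCGG, on either strand, so that a box on the opposite strand reads ATTGG or CCGCCC. The Hmgcs1 window lies at chr2:53382054-53382303 on the plus strand, that of Idi1 at chr17:66547525-66547774 on the minus strand, that of Lss at chr20:12118231-12118480 on the minus strand, and that of Dhcr7 at chr1:208444184-208444433 on the plus strand.
Hmgcs1: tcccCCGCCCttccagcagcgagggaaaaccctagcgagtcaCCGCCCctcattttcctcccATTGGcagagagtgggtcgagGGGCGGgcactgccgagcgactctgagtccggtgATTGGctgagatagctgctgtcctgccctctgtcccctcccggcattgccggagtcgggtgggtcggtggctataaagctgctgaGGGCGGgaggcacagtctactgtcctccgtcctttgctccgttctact
Idi1: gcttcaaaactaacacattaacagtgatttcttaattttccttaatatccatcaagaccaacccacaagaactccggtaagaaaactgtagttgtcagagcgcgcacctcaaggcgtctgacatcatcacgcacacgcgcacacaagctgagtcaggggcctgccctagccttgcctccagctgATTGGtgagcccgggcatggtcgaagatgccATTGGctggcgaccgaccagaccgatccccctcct
Lss: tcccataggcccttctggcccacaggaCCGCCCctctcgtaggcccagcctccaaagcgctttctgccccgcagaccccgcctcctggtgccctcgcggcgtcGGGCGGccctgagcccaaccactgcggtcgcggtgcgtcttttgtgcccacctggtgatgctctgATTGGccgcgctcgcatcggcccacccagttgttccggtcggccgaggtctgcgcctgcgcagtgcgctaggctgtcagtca
Dhcr7: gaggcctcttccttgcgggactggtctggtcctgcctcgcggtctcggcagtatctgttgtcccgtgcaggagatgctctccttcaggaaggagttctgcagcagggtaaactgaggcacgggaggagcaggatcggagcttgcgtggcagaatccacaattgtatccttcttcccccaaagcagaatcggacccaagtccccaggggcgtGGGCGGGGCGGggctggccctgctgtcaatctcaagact
Hmgcs1 held 2 NF-Y boxes and 4 GC boxes, Idi1 held 2 NF-Y boxes and 0 GC boxes, and Lss held 1 NF-Y box and 2 GC boxes. Dhcr7 held 0 NF-Y boxes and 2 GC boxes, at -39 to -34 and -34 to -29 from the start, which share 1 base. The Cyp51 window held 1 GC box and 0 NF-Y boxes. Of 33469 RefSeq promoters of the same length, 34.0% held CCAAT and 30.5% held GGGCGG. A sterol response element searched as TCACNCCAC was found in 0 of the 5 windows and in 0.974% of all promoters. Only this form within the 250 bases was searched, so the result does not show that the element is absent. These are matches of letters only.

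The 6 libraries held between 16670760 and 18151156 estimated counts, and the smallest count of any of the 7 genes was 819, so counting error was small beside the spread between libraries. Levels are given as CPM, the share of a library's counts on the usual fixed scale, adjusted by TMM factors, and levels of different genes are compared only as the deposited FPKM, which divides by gene length. No gene of the 14426 tested passed an adjusted p of 0.05 in edgeR's quasi-likelihood test (0% of genes called, smallest adjusted p 0.116), while 1565 genes had an unadjusted p under 0.05, 4.91% of all tested being higher and 5.94% lower in SNI-NP rats. These 708 higher and 857 lower genes were 470 and 1128 with library totals in place of TMM factors, and 1303 and 707 with offsets for gene length. DESeq2 called 1.48% of the genes it adjusted, and none of the 7 enzymes was among them. The tissue labelled spinal cord carried oligodendrocyte genes, at a summed 33084 to 44318 CPM, and genes of lumbar position such as Hoxc10 at 20.6 to 37.4 CPM. It also carried peripheral myelin genes such as Prx and Drp2, at a summed 7016 to 10547 CPM over 5 genes, and dorsal root ganglion neuron genes at a summed 235 to 2033 CPM. In a tissue of several cell types, fewer cells of a type and less RNA per cell cannot be told apart.

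Of the 7 enzymes, Dhcr7 alone had an unadjusted p under 0.05 and Dhcr7 alone had all 3 SNI-NP libraries above all 3 sham libraries. That separation was seen upward in 10.4% and downward in 8.15% of all genes tested. Values of 5 enzymes were on average higher and those of Idi1 and Lss lower in SNI-NP rats, and the median log2 fold change of the 7 was 0.09, against 0.01 over all genes tested. One enzyme of 7 at that p, read against 4.91% of all genes, gives no more than this single value, and the smallest edgeR adjusted p of the 7 was 0.44. With 1 library left out, 0 enzymes (without SNI-NP 3) to 3 enzymes (without SNI-NP 2) had an unadjusted p under 0.05, and the median became -0.062 without SNI-NP 3 and -0.0086 without sham 3.

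**Figure D1:**
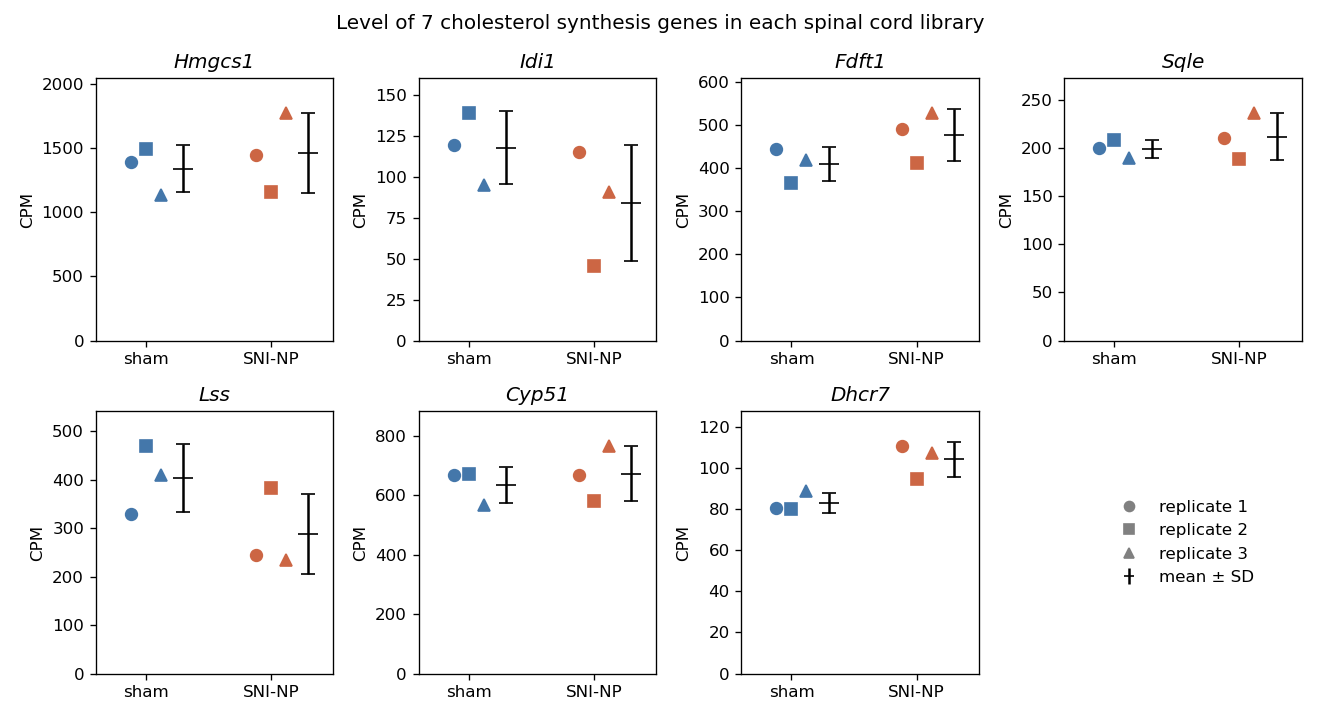
Level of each of the 7 enzymes in CPM (y axis from 0) in 3 sham (blue) and 3 SNI-NP (orange) libraries, with the mean and SD of each group in black. The groups overlap in every panel but that of Dhcr7, where sham libraries lie at 79.8 to 88.8 CPM and SNI-NP libraries at 94.4 to 110.9 CPM.

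Per length, Hmgcs1 stood highest in sham cord at 422 ± 64.3 FPKM (SD, n = 3), followed by Cyp51 at 193 ± 20.2, Lss at 145 ± 99.3, Fdft1 at 131 ± 10.2, Sqle at 74.1 ± 4.77, Idi1 at 42.6 ± 8.80 and Dhcr7 at 34.8 ± 1.63. The ranges of Lss in the 3 sham libraries overlapped those of Cyp51, Fdft1 and Sqle, and Idi1 overlapped Dhcr7, so these neighbours did not differ beyond their spread. Hmgcs1 lay above every other enzyme in all 6 libraries. In SNI-NP cord the order was Hmgcs1 at 447 ± 92.8 FPKM, Cyp51 at 198 ± 26.5, Fdft1 at 149 ± 17.1, Sqle at 76.4 ± 8.51, Lss at 70.5 ± 31.6, Dhcr7 at 42.2 ± 2.48 and Idi1 at 29.2 ± 11.7. Dhcr7 thus stood below Idi1 in the mean of sham rats and above it in the mean of SNI-NP rats, with overlapping ranges in sham cord only. In SNI-NP cord the ranges nearly met, with Dhcr7 at 39.3 FPKM in SNI-NP 2 and Idi1 at 39.24 FPKM in SNI-NP 1. Idi1 was lowest in SNI-NP 2, at 16.3 FPKM.

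Hmgcs1 (ENSRNOG00000016552) encodes cytosolic HMG-CoA synthase, an enzyme at the entry to the mevalonate pathway. It measured 1390, 1492 and 1136 CPM in the sham libraries and 1447, 1160 and 1778 CPM in the SNI-NP libraries. SNI-NP 3 was the highest and sham 3 the lowest, with the other 4 libraries between them. The log2 fold change was 0.13 ± 0.18 (SE), with a 95% interval of -0.30 to 0.56 and an edgeR adjusted p of 0.82, so a difference of up to 1.47-fold upward or down to 0.810-fold lies inside the interval. Without SNI-NP 3 the log2 fold change was -0.079.

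Idi1 (ENSRNOG00000016690) encodes isopentenyl diphosphate isomerase, which balances the 2 isoprene isomers that are joined into longer chains. Sham libraries measured 120, 139 and 94.8 CPM. SNI-NP libraries measured 115, 45.5 and 90.9 CPM. The value of SNI-NP 2 was 0.5 of the lowest of the other 5 libraries, and of the other SNI-NP libraries 1 lay within the sham range and 1 just below it. The log2 fold change was -0.49 ± 0.32 (SE; 95% interval -1.24 to 0.25, edgeR adjusted p 0.57), and it was -0.19 without SNI-NP 2 and -0.79 with an unadjusted edgeR p of 0.035 without SNI-NP 1. SNI-NP 2 stood apart in other genes too, since 317 of 11271 genes with at least 5 CPM on average were there more than 1.5-fold below the lowest other library, against 260 in SNI-NP 1 and 4 to 79 in each of the other 4 libraries. The 4 other genes listed as isopentenyl diphosphate isomerases had no count in any library.

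Fdft1 (ENSRNOG00000021314) encodes squalene synthase, the first enzyme committed to sterols, and Sqle (ENSRNOG00000009550) encodes squalene epoxidase, which adds the oxygen that is needed before ring closure and is regarded as a slow step. Fdft1 measured 444, 366 and 418 CPM in sham and 491, 412 and 529 CPM in SNI-NP libraries. Of these, 2 SNI-NP libraries were above every sham library and SNI-NP 2 was not. The log2 fold change was 0.22 ± 0.13 (SE; 95% interval -0.09 to 0.53, edgeR adjusted p 0.55), and it was 0.32 (unadjusted edgeR p 0.047) without SNI-NP 2, 0.11 (p 0.47) without SNI-NP 3 and 0.15 (p 0.31) without sham 2. Sqle was the steadiest of the 7 genes, at 200, 208 and 190 CPM in sham and 210, 188 and 237 CPM in SNI-NP libraries, a 1.26-fold range over all 6. Its log2 fold change was 0.09 ± 0.11 (SE; 95% interval -0.18 to 0.36, edgeR adjusted p 0.79), and the groups overlapped, so any difference above 1.28-fold upward lies outside the interval. Without SNI-NP 3 the log2 fold change of Sqle was -0.037.

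Lss (ENSRNOG00000054549) encodes lanosterol synthase, which folds the epoxide into the first sterol ring system. Sham libraries measured 329, 470 and 409 CPM, and SNI-NP libraries measured 245, 383 and 234 CPM. SNI-NP 1 and SNI-NP 3 were below every sham library, while SNI-NP 2 lay between sham 1 and sham 3. The log2 fold change was -0.49 ± 0.22 (SE; 95% interval -1.0 to 0.03), with an unadjusted p of 0.061 and an adjusted p of 0.48 in edgeR. Without SNI-NP 2 it was -0.75 with an unadjusted edgeR p of 0.0038, without sham 1 it was -0.63 with one of 0.038, and without sham 2 it was -0.36 with an unadjusted edgeR p of 0.19.

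The Lss values carry a second feature of the files. The gene length implied by count, library total and FPKM was the same in every library for Hmgcs1, Idi1, Fdft1, Sqle and Cyp51 to within 1.0002-fold, and for Dhcr7 to within 1.02-fold. For Lss it was 4253, 1885 and 4147 bases in the sham libraries and 4455, 3605 and 4468 bases in the SNI-NP libraries. This 2.37-fold range was the widest among 4788 genes with at least 500 counts in every library, where the next widest was 1.68-fold and the median was 1.0004-fold. Lss spanned 2.01-fold in CPM, which uses no gene length, and 5-fold in FPKM, which divides by it. The log2 ratio of SNI-NP to sham means was -0.49 in CPM and -1.04 in FPKM. The 2 libraries with the shortest implied length, sham 2 and SNI-NP 2, were those with the highest Lss level of their own group in CPM. Which transcripts made up the Lss counts was not tested.

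**Figure D2:**
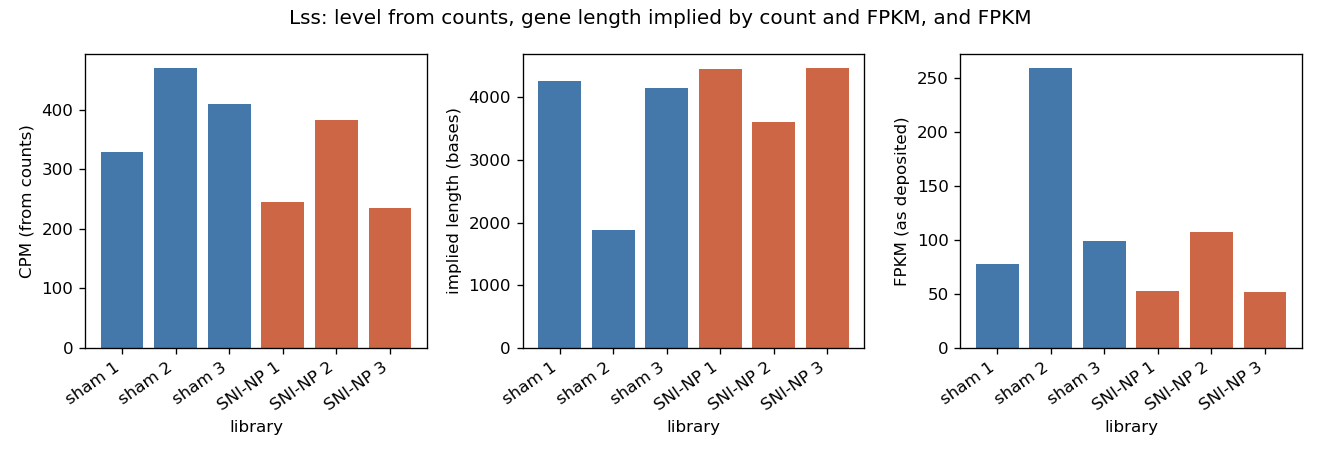
Lss in each of the 6 libraries as CPM from the counts (left), as the length in bases implied by count, library total and FPKM (middle) and as FPKM (right), with sham libraries in blue and SNI-NP libraries in orange. The implied length runs from 1885 bases in sham 2 to 4468 bases in SNI-NP 3, and the FPKM of sham 2, at 259, stands far above that of the other libraries.

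Cyp51 (ENSRNOG00000007234) encodes the P450 enzyme that demethylates lanosterol. It measured 670, 670 and 566 CPM in sham and 668, 582 and 768 CPM in SNI-NP libraries. As with Hmgcs1, SNI-NP 3 was the highest and sham 3 the lowest library. Its log2 fold change was 0.08 ± 0.14 (SE; 95% interval -0.24 to 0.40, edgeR adjusted p 0.85), the smallest in size of the 7, and it was -0.062 without SNI-NP 3.

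Dhcr7 (ENSRNOG00000020776) encodes the reductase that turns 7-dehydrocholesterol into cholesterol, and its human counterpart is known for the inherited sterol disorder Smith-Lemli-Opitz syndrome. It measured 80.6, 79.8 and 88.8 CPM in the sham libraries and 111, 94.4 and 107 CPM in the SNI-NP libraries. All SNI-NP libraries lay above all sham libraries, and the lowest SNI-NP library was again SNI-NP 2. The log2 fold change was 0.33 ± 0.10 (SE), a 1.25-fold higher level with a 95% interval of 1.06 to 1.49. The unadjusted edgeR p was 0.016, the adjusted p was 0.44, and the DESeq2 adjusted p was 0.20, so the difference did not pass a test over all genes. Leaving out sham 1, SNI-NP 1 or SNI-NP 3 took the unadjusted edgeR p above 0.05, with log2 fold changes of 0.29, 0.28 and 0.27.

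**Figure D3:**
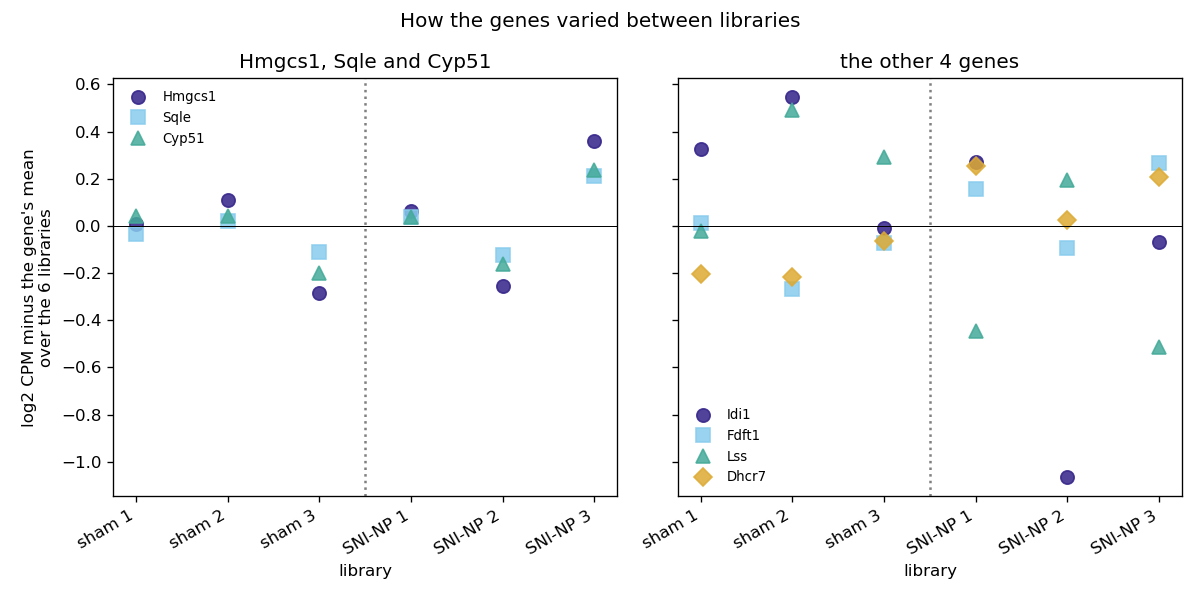
Deviation of each enzyme's log2 CPM from its own mean over the 6 libraries, with Hmgcs1, Sqle and Cyp51 on the left and Idi1, Fdft1, Lss and Dhcr7 on the right; the dotted line separates the sham from the SNI-NP libraries. The left 3 genes lie close together in every library, low in sham 3 and SNI-NP 2 and high in SNI-NP 3, while Idi1 lies far down in SNI-NP 2.

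The enzymes did not vary as 1 block between libraries. Hmgcs1, Sqle and Cyp51 shared an order of libraries at both ends, with SNI-NP 3 the highest of 6 and sham 3 and SNI-NP 2 the lowest. Over the 6 libraries Pearson's r of log2 CPM was 0.99 for Hmgcs1 with Cyp51 (Spearman's rho 0.94), with an exact two-sided permutation p of 0.0042 for r and 0.017 for rho. For Hmgcs1 with Sqle r was 0.97 (rho 0.89), with exact permutation p of 0.0056 and 0.033, and for Sqle with Cyp51 it was 0.95 (rho 0.77), with exact permutation p of 0.014 and 0.10. After Benjamini-Hochberg adjustment over all 21 pairs the exact permutation p of r was 0.039, 0.039 and 0.073 in that order, and that of rho was 0.17, 0.23 and 0.43. Without the 2 libraries farthest from the median of the gene named first, r was 0.97, 0.96 and 0.88. The 2 lowest libraries came from different groups, so the shared order did not follow the groups. The order was not particular to these 3 enzymes. With their mean, r was 0.91 for the uptake gene Stard4, 0.89 for the synthesis gene Nsdhl, 0.85 for Msmo1 and 0.81 for Insig1. It was 0.63 for Sc5d and 0.31 for Srebf2. The share of all gene pairs with such an r was not computed.

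Fdft1 and Lss, which act on either side of Sqle, ran in opposite order. Their r was -0.98 (rho -0.94), with an exact permutation p of 0.0028 for r and 0.017 for rho, 0.039 and 0.17 after adjustment over the 21 pairs, and r was -0.98 without the 2 libraries farthest from the median of Fdft1. Both genes were at an extreme in sham 2, where Fdft1 was lowest and Lss highest, and in SNI-NP 3, where Fdft1 was highest and Lss lowest. The implied length of Lss was also shortest in sham 2 and longest in SNI-NP 3. Dhcr7 with Fdft1 had an r of 0.80 (rho 0.71) and an exact permutation p of 0.064 for r and 0.14 for rho, 0.22 and 0.48 after adjustment, and r was 0.60 without the 2 libraries farthest from the median of Fdft1. Lss with Dhcr7 had an r of -0.82 (rho -0.77), with an exact permutation p of 0.05 for r and 0.10 for rho. After adjustment these were 0.21 and 0.43. Without the 2 libraries farthest from the median of Lss, r was -0.08. Each correlation was taken over 6 libraries of 2 groups that share scaling, and libraries within a group share its treatment.

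Of 11 other synthesis genes given here, 10 had higher mean values in SNI-NP rats, 1 had an unadjusted edgeR p under 0.05, Tm7sf2, which was higher, and 0 passed adjustment. Their median log2 fold change was 0.18, with 5 of the 11 in full separation upward, namely Acat2, Mvd, Fdps, Tm7sf2 and Ebp, against the 10.4% of all genes. That median was 0.088 without sham 3, 0.097 without SNI-NP 3 and 0.11 without SNI-NP 1. Tm7sf2, a sterol reductase of the step after Cyp51, measured 63.6, 71.0 and 73.6 CPM in sham and 88.1, 82.3 and 95.2 CPM in SNI-NP libraries, with a log2 fold change of 0.35 ± 0.11 (SE) and an edgeR adjusted p of 0.41. Without SNI-NP 3 the unadjusted edgeR p of Tm7sf2 was 0.073, and without sham 1 it was 0.055. Lbr, which shares its reaction with Tm7sf2, was not analysed here.

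Fdps, which makes farnesyl diphosphate for squalene synthase, had a log2 fold change of 0.19 ± 0.10 (SE; edgeR adjusted p 0.51). Msmo1, which removes methyl groups after Cyp51, had a log2 fold change of 0.20 ± 0.14 (SE; edgeR adjusted p 0.61), which was 0.066 without SNI-NP 3 and 0.088 without sham 3. Of the 11, the gene with a lower mean was Sc5d, whose groups overlapped.

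**Figure D4:**
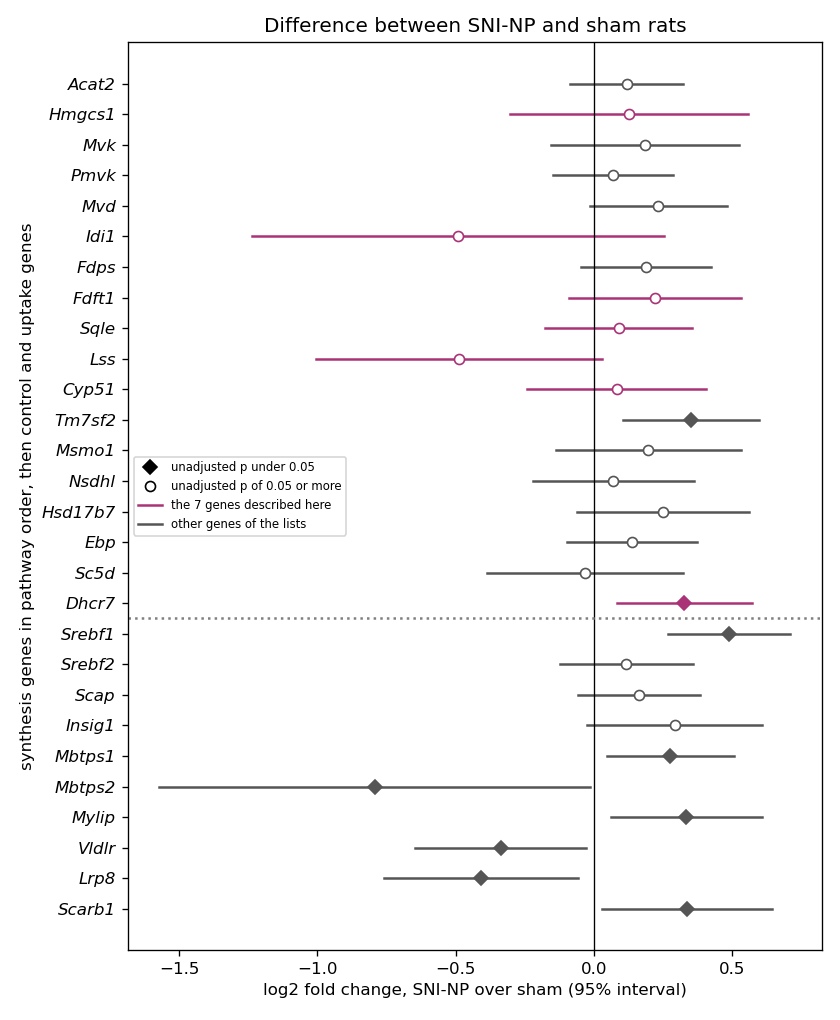
Log2 fold change of SNI-NP over sham with its 95% interval for 18 synthesis genes, in pathway order from the top, and below the dotted line for genes of SREBP control and sterol uptake; the 7 enzymes are in purple, and filled diamonds have an unadjusted edgeR p under 0.05. Idi1 and Lss stand alone on the far left of the synthesis genes, each at -0.49, and the 2 synthesis genes with filled diamonds are Tm7sf2 and Dhcr7.

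Among 12 genes of SREBP control, 3 were higher and 1 lower at an unadjusted edgeR p under 0.05, against 4.91% and 5.94% of all genes, and 0 passed adjustment. The 4 genes were 7 with offsets for gene length, 1 without sham 1, and 2 without SNI-NP 1, SNI-NP 3 or sham 3. Srebf1, which encodes SREBP1, measured 87.2, 84.5 and 87.9 CPM in sham and 114, 119 and 131 CPM in SNI-NP libraries. The groups were well apart, and its log2 fold change was 0.49 ± 0.09 (SE), with an edgeR adjusted p of 0.29 and a DESeq2 adjusted p of 0.0050. Srebf2, the SREBP most tied to cholesterol synthesis, overlapped between groups at 182 to 209 CPM in sham and 203 to 224 CPM in SNI-NP libraries, with a log2 fold change of 0.12 ± 0.10 (SE; edgeR adjusted p 0.68), which was 0.057 without sham 2, 0.059 without SNI-NP 3 and 0.25 with length offsets. Insig1, which holds the SREBPs in the endoplasmic reticulum and is itself their target, had a log2 fold change of 0.29 ± 0.13 (SE; edgeR adjusted p 0.48), which was 0.40 (unadjusted edgeR p 0.013) without SNI-NP 2 and 0.12 (p 0.34) without SNI-NP 3. Of the proteases that free SREBP in the Golgi, Mbtps1 had a log2 fold change of 0.28 ± 0.10 (SE; edgeR adjusted p 0.44). Mbtps2 had one of -0.79 ± 0.33 (SE; edgeR adjusted p 0.45), from 9.95 to 11.8 CPM in sham libraries and 8.51, 3.22 and 6.72 CPM in SNI-NP libraries, with SNI-NP 2 again the lowest, and its log2 fold change was -0.48 without that library and -1.1 without SNI-NP 1. Mylip, a ubiquitin ligase of sterol uptake, had a log2 fold change of 0.33 ± 0.12 (SE; edgeR adjusted p 0.44).

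Among 10 genes of sterol uptake given here, 1 was higher and 2 lower at an unadjusted edgeR p under 0.05, against 4.91% and 5.94% of all genes, and 0 passed adjustment with either tool. With offsets for gene length 2 were higher and 0 lower. Scarb1, the HDL receptor, had a log2 fold change of 0.33 ± 0.13 (SE; edgeR adjusted p 0.44) with overlapping groups, and it was 0.21 (unadjusted edgeR p 0.19) without SNI-NP 3. The receptors Vldlr and Lrp8, which bind apolipoprotein E and serve as reelin receptors, had log2 fold changes of -0.34 ± 0.13 and -0.41 ± 0.15 (SE), with edgeR adjusted p of 0.44 for both. With length offsets Vldlr was at -0.26 (unadjusted edgeR p 0.064) and Lrp8 at -0.16 (p 0.42). Among 11 genes of sterol efflux and turnover, 0 had an unadjusted edgeR p under 0.05 and 0 separated the groups, with a median log2 fold change of 0.00. Apoe, the main lipid carrier of glia, ranged from 2002 to 2371 CPM in sham and from 1802 to 2954 CPM in SNI-NP libraries, and Abca1, which loads cholesterol onto it, from 32.6 to 60.8 and from 41.8 to 49.9 CPM. Over the 54 genes of the 5 lists given here, the 9 with an unadjusted edgeR p under 0.05 became 1 without sham 1, 3 without sham 3, 4 without SNI-NP 3 and 5 without SNI-NP 1.

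Markers of several cell types differed between the libraries as well. The 5 genes of Schwann cells and peripheral myelin summed to 7016 to 8376 CPM in sham and to 10547, 7715 and 9382 CPM in SNI-NP libraries, all 5 with a higher mean, and Prx had an unadjusted edgeR p of 0.049. SNI-NP 2 was the lowest SNI-NP library for Hmgcs1, Idi1, Fdft1, Sqle, Cyp51 and Dhcr7, and the highest for Lss. In the peripheral myelin sum it was also the lowest of the 3, and sham 3 was the lowest sham library. Among the enzymes sham 3 was the lowest sham library for Hmgcs1, Idi1, Sqle and Cyp51, but the highest for Dhcr7. The low place of SNI-NP 2 was shared by the sums of oligodendrocyte genes, at 33084 CPM, and oligodendrocyte precursor genes, at 264 CPM. In the neuron sum SNI-NP 2 was the highest SNI-NP library, at 5609 CPM. The sum of dorsal root ganglion neuron genes had the same order, at 235, 2033 and 1436 CPM in SNI-NP 1, 2 and 3. In sham 1, 2 and 3 the ganglion sum was 699, 1210 and 1432 CPM. The part of ganglion neurons in the neuron sum was not tested. The 10 oligodendrocyte genes summed to 34124 to 44318 CPM in sham and to 33084 to 44103 CPM in SNI-NP libraries. All 8 astrocyte genes and 9 of 10 neuron genes had a lower mean in SNI-NP rats. Of these, 1 and 4 had an unadjusted edgeR p under 0.05, against 5.94% of all genes lower. The glutamate transporter gene Slc17a6 had a DESeq2 adjusted p of 0.0060. Full separation downward was seen in 0 astrocyte and 2 neuron genes, against 8.15% of all genes. Astrocyte sums were 1355 to 3289 CPM in sham and 1634 to 2075 CPM in SNI-NP libraries. Neuron sums were 4853 to 7034 CPM in sham and 2372, 5609 and 4597 CPM in SNI-NP libraries. The 5 blood genes summed to 496 to 1205 CPM in sham and to 1098 to 2633 CPM in SNI-NP libraries, all 5 with a higher mean. Of these, 3 had an unadjusted edgeR p under 0.05, against 4.91% of all genes higher, and 1, Slc4a1, had a DESeq2 adjusted p of 0.0060. The 5 skeletal muscle genes summed to 12.1 to 72.1 CPM in sham libraries and to 169, 10.2 and 423 CPM in SNI-NP libraries. No gene of these lists was at 0 in all libraries, and the part of tissue makeup in the values of the 7 enzymes was not tested.

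The genes whose pattern over the 6 libraries was most like the mean centred log2 CPM of the 7 enzymes, among 11264 genes with at least 5 CPM on average, were Lsm14a at r = 0.995, Ppp1r15b at 0.994, Creg1 at 0.991, Tbl1x at 0.987 and Elovl6 at 0.985. The mean profile lay lowest in SNI-NP 2, at -0.21 on the log2 scale, where Idi1 was at -1.07, so likeness to it is in large part likeness to Idi1. Elovl6, an elongase of fatty acids, measured 1.67 CPM in SNI-NP 2 and 4.89 to 9.22 CPM in the other libraries. Lsm14a measured 45.0 CPM in SNI-NP 2 and 52.1 to 63.3 CPM in the others. All 5 were lowest in SNI-NP 2, the library in which Idi1 was lowest, and their smallest unadjusted edgeR p was 0.64. They were picked for the highest r with a profile that was lowest in SNI-NP 2 and differed little between groups. Both traits therefore follow from how they were picked. How high an r such a search over 6 libraries gives by itself was not tested.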

How the data were processed

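Total RNA of 6 spinal cord libraries, 3 sham and 3 SNI-NP, was extracted with TRIzol and sequenced on an Illumina system. Per the labels and the study's methods, the authors used FastQC, STAR and HTSeq, mapped reads to the Rat6 genome and kept unique reads; versions, strand setting and annotation are not given in the sources used here. Which of these made the counts is not stated either. The deposited table holds an estimated count and an FPKM value per gene and library, which the authors computed before deposit; 11.5% of genes with a count have a value that is not whole, and implied gene lengths differ between libraries for some genes, so the values are treated as estimates whose tool is uncertain; all 42 counts of the 7 enzymes were whole. The authors' own comparison was not used.

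Estimated counts were rounded and tested with edgeR 4.0.16 in R 4.3.3 (filterByExpr, TMM factors of 0.958 to 1.04, quasi-likelihood test on group, Benjamini-Hochberg over 14426 genes; biological coefficient of variation 0.223), and the steps were tested on simulated data. The standard error was taken from the coefficient and its F value, and intervals of 95% use the moderated degrees of freedom. The study names DESeq2, run here (1.42.0) as an alternative, as was limma 3.58.1 on log2 of FPKM plus 0.1. Libraries were treated as replicates; the p-values measure the spread between them. No 2 libraries of the same group agreed within sampling noise.

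Genes named were all 7 enzymes, every gene of the 5 pathway lists with an unadjusted p under 0.05, Fdps, Msmo1, Srebf2, Srebf1, Insig1, Vldlr, Apoe and Abca1 whatever their values, other genes listed for the same enzyme, and the 5 genes most like the enzymes' mean profile. Some genes of the lists and of this rule are not reported here and stay out of the lists' counts, but stayed in the fit. The enzymes, the lists of genes and the tests were chosen with earlier results of these data known. Of the other marker lists, 0 of 8 microglia, 0 of 8 dorsal root ganglion neuron and 0 of 5 oligodendrocyte precursor genes had an unadjusted edgeR p under 0.05, against 1 of 5 meningeal genes (Col1a1, higher), 1 of 5 muscle genes (Myh4, higher) and 0 of 6 tested genes of cord position. Over all genes tested, 4.91% were higher and 5.94% lower at that p.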

Additional observations from a re-analysis of the deposited data

How the results depend on the processing

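The results were recomputed under 16 other settings, of which library totals in place of TMM factors was chosen after seeing the data. Of the 22 genes followed through every setting, 17 had the same direction in every setting, among them Idi1, Fdft1, Lss and Dhcr7. The 22 were the enzymes, the 9 pathway genes at an unadjusted edgeR p under 0.05 and genes named whatever their values. Genes picked for a small p in the same data tend to keep their direction, so 17 of 22 does not measure how stable the lists are. The count of genes at an adjusted p under 0.05, 0 with edgeR, was 210 with DESeq2 and 2 with limma on FPKM, and ranged from 0 to 222 with 1 library left out, the 222 coming without SNI-NP 1 and another 2 without sham 2. The count at an unadjusted p under 0.05 ranged from 908 (without sham 1) to 2134 (without sham 2) with 1 library left out, with 917 without SNI-NP 3 and 1019 without sham 3. Higher and lower genes were 708 and 857 with TMM factors, 470 and 1128 with library totals, 484 and 1193 with limma on FPKM, and 1303 and 707 with offsets for gene length. The 1 enzyme at an unadjusted p under 0.05 became 2 with DESeq2, with length offsets, with the replicate block and with the block and length offsets, and 0 to 3 with 1 library left out, 3 without SNI-NP 2 and 0 without SNI-NP 3. The median log2 fold change of the enzymes reversed to -0.062 without SNI-NP 3 and to -0.0086 without sham 3, and reached 0.18 without SNI-NP 2. With 1 library left out Hmgcs1 ranged from -0.079 to 0.27, Cyp51 from -0.062 to 0.18, Sqle from -0.037 to 0.17, Apoe from -0.10 to 0.26 and Abca1 from -0.22 to 0.26 on the log2 scale. Abca1 also reversed to -0.0085 with DESeq2, -0.0086 with RLE factors and -0.046 with library totals. The 9 pathway genes at an unadjusted p under 0.05 outside the enzymes became 16 with length offsets, 4 with limma on FPKM and 3 with the replicate block, and 1 to 10 with 1 library left out, 5 without SNI-NP 1, 4 without SNI-NP 3, 1 without sham 1 and 3 without sham 3. The cause was not tested. The replicate numbers did not pair the libraries: same-numbered libraries had correlations of deviations from the group mean of 0.21, -0.14 and 0.05, and not every library correlated best with its own number; with the replicate block Lss reached an unadjusted p of 0.014 with a log2 fold change of -0.51, and 1319 genes had an unadjusted p under 0.05. Dhcr7 kept an unadjusted p under 0.05 in 13 of the 16 settings and Srebf1 in 16.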

Other observations

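Fatty acid synthesis, which SREBP1 controls, was described from a list of 10 genes. Of these, 7 had a higher mean in SNI-NP rats. Only the desaturase gene Fads2 had an unadjusted edgeR p under 0.05 (0.0498), against 4.91% of all genes higher at that p. The log2 fold change of Fads2 was 0.28 ± 0.12 (SE), with an edgeR adjusted p of 0.46. Fads2 measured 84.2, 105 and 106 CPM in sham and 116, 117 and 126 CPM in SNI-NP libraries. Its groups did not overlap, which was seen upward in 10.4% of all genes tested. Its unadjusted edgeR p stayed under 0.05 in 2 of 16 other settings, its log2 fold change was 0.16 without sham 1, and the list's count was 0 with DESeq2 and 5 with offsets for gene length. The median log2 fold change of the 10 was 0.15. Scd2, a desaturase of myelinating tissue, measured 12139 to 12994 CPM in sham and 12716 to 15358 CPM in SNI-NP libraries. Fasn, the fatty acid synthase, overlapped between groups at 792 to 912 and 839 to 1029 CPM.

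The annotation column of the deposited table gave 22 genes the term cholesterol biosynthetic process, of which 17 were tested and 5 were among the 7 enzymes. In these 17 genes, 3 were higher and 1 lower at an unadjusted edgeR p under 0.05, against 4.91% and 5.94% of all genes. Their median log2 fold change was 0.22, against 0.01 over all genes tested. The 17 include 5 of the enzymes already counted, so they are not a separate set.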
